A study of Rattus norvegicus with 4 samples.

Results

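Myc and Sox2 were examined together with the gene deserts around them, in Hi-C contact maps of rat Schwann cells. The members were the 10 kb bins of 2 windows fixed by position on the rn6 genome and not by any measured value: chromosome 7 from 101.5 to 104.5 Mb, with Myc near 102.59 Mb, and chromosome 2 from 120 to 122.5 Mb, with Sox2 near 121.16 Mb. They made up 550 of the 278214 bins in the deposited matrices, 300 around Myc and 250 around Sox2. Each gene was followed through its own bin and the bin on either side, named here by where they start: 102.58, 102.59 and 102.6 Mb for Myc, and 121.15, 121.16 and 121.17 Mb for Sox2. Both given gene positions are borders between bins. The bin said to hold a gene is the one that starts there, and the gene may lie partly or wholly in the bin below. No gene annotation of rn6 was used here, so positions other than the genes themselves are named by coordinate only.

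The cells were primary Schwann cells, the myelinating glia of peripheral nerve, isolated from rat sciatic nerve and grown in DMEM with 10% FBS, 4 µM forskolin and 5 ng/ml heregulin-β1. Both groups received lentivirus at 2 UFC per cell for 48 h. Lenti-AS overexpressed Egr2-AS-RNA, an RNA antisense to the promoter of the myelination regulator Egr2, and Lenti-GFP was the control virus, carrying GFP. Per the study's methods the antisense sequence was cloned into pLVX-DsRed-Express2-N1 and the control plasmid was pLVX-AcGFP1-N1, so vector and antisense RNA cannot be told apart between the groups. Each group had 2 libraries made with the Arima Hi-C kit, and the comparison asks whether the antisense RNA moved contacts of either gene. The labels call the samples independent without naming separate animals, so p-values measure the spread between these libraries, which may be technical. Hi-C holds no RNA, so neither Schwann cell markers nor the level of the antisense RNA could be checked.

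Myc encodes a transcription factor that drives growth and cell division. Sox2 encodes an HMG-box transcription factor of stem and progenitor cells, which in Schwann cells belongs to the immature and injury-responsive state and opposes myelination. Both genes lie in long stretches with few other protein-coding genes, and in other cell types both are known to be controlled by enhancers far from the promoter, which is why contacts over long distances are of interest. Hi-C counts ligated pairs of restriction fragments, so a contact records proximity of 2 stretches of chromosome and not the activity of either.

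In the gene order of the GRCr8 assembly, Myc is followed on one side by the long non-coding RNA gene Pvt1 and then by Gsdmc, Cyrib and Asap1, and on the other side by non-coding genes and then Lratd2. Sox2 has Dnajc19, Fxr1, Ccdc39 and Ttc14 on one side, and non-coding genes and then Atp11b, Dcun1d1 and Mccc1 on the other. The bases that end where Sox2 starts are shown because the Sox2 bin and the bin on either side of it held the domain edge and the loop ends described below. They are the 250 bases upstream of the start in RefSeq, GRCr8 chr2:119464881-119465130, plus strand, with matches to CCAAT or GGGCGG on either strand in capitals.
Sox2 promoter: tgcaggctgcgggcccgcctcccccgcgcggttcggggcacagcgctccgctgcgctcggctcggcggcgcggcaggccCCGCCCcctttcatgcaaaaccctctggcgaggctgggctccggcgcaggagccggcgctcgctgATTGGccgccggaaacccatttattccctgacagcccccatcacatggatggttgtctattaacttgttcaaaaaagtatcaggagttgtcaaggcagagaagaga
The stretch was 64.4% G or C. It held 1 CCAAT match, read on the reverse strand as ATTGG and starting 106 bases before the gene, and 1 GGGCGG match, read as CCGCCC and starting 171 bases before it. Of 33469 promoters cut to the same 250 bases, 34.02% held CCAAT and 30.5% held GGGCGG on either strand, so both strings are common in such windows.

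The libraries held 94956821 and 110770015 contacts for Lenti-GFP 1 and 2, and 74811640 and 70488877 for Lenti-AS 1 and 2. Contacts were scaled throughout as observed over expected, where the expected count is the mean of all usable bin pairs at the same distance in the same library, so 1 is an average pair. That mean was 5.41 to 8.47 contacts per 10 kb pair at 50 kb, but only 0.207 to 0.331 at 1 Mb, so single 10 kb pairs at long range rest on few reads. Counts are reads without molecular identifiers, and all intervals cover the spread among libraries only. A bin was usable where its contacts within the chromosome reached 0.25 of the median bin, as 256 of the 300 Myc bins and 222 of the 250 Sox2 bins did.

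Myc sat directly against a run of 22 unusable bins from 102.36 to 102.58 Mb, which held 323 contacts within the chromosome in all 4 libraries together and ended 10 kb below the Myc bin. Beyond the 3 bins themselves, no contact of Myc could therefore be measured on its lower side within 220 kb. The Sox2 window had its longest unusable run, of 13 bins, from 122.05 to 122.18 Mb, far from the gene. The Myc bin itself was ordinary in depth, with 721, 785, 587 and 536 contacts on its chromosome in Lenti-GFP 1 and 2 and Lenti-AS 1 and 2, an average 1.18 times the median usable bin. The Sox2 bin had 484, 605, 433 and 400 such contacts, 0.863 times the median bin. Its contacts with other chromosomes were fewer still, 18, 38, 24 and 37, or 0.371 times the median bin, against 0.928 times for Myc.

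Towards higher positions, Myc contacts stood above the distance average, and the mean of the 4 libraries was higher near 1 Mb than close to the gene, with falls between some neighbouring steps. In the step from 20 to 70 kb the 3 Myc bins had an observed over expected value of 1.36, 1.23, 1.31 and 1.52 in the 4 libraries, in the order given above. From 470 to 520 kb the values were 3.31, 3.69, 3.14 and 4.66, and from 1020 to 1070 kb they were 5.98, 5.75, 8.43 and 5.77. All 4 libraries stood above an average pair in each of these steps, and the groups overlapped in each of the 3. The highest values of the whole Myc profile came much farther out, in 3 neighbouring steps from 104.36 to 104.51 Mb. The middle step, 104.41 to 104.46 Mb, 1820 kb from Myc, held 68, 54, 45 and 41 contacts, which were 39.6, 26.9, 34.4 and 32.8 times the expected count. The step before it had values of 12.8, 18.1, 22.2 and 22.3, and the step after it 10.3, 14.01, 17.4 and 9.93. Directly beyond this peak, at 1920 kb, the values were 1.27 and 1.62 in Lenti-GFP and 6.60 and 4.33 in Lenti-AS, without overlap, and at 1970 kb they were 1.95, 2.23, 3.41 and 0.886.

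Over the whole higher side of Myc, both Lenti-AS values lay above both Lenti-GFP values in 13 of 39 steps and below them in 1. Taken around every run of 3 usable bins of the genome, 14.6% of steps had Lenti-AS above and 15.4% had it below without overlap. Among the 13 were the step at 320 kb, with 2.07 and 2.13 against 2.99 and 2.92, and the step at 1420 kb, with 1.61 and 1.03 against 3.68 and 5.47. The steps share the 3 Myc bins, whose contacts within the chromosome were themselves higher in Lenti-AS. Relative to the median bin, the average over the 3 was 1.28 and 1.24 in Lenti-GFP and 1.39 and 1.37 in Lenti-AS. With each library's values divided by those contacts, an alternative chosen after seeing the data, 8 steps had Lenti-AS above and 4 had it below, against 13.5% and 15.8% of all steps. That divisor contains the contacts compared, so a gain shared by many steps would be divided out. The division therefore cannot tell such a gain from a difference in the depth of the bins. On the lower side of Myc the counts were 4 above and 2 below of 34 steps, and 2 and 3 after this division. For Sox2 they were 4 and 5 of 40 on the lower side, and 2 and 5 after division, and 6 and 5 of 37 on the higher side, and 4 and 8 after division. The balance of above and below thus turned on the lower side of Myc and the higher side of Sox2.

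Towards lower positions, Myc contacts were interrupted. The first usable bins, 220 to 320 kb away, were almost empty, with a mean over the 4 libraries of 0.0293 and then 0.0654. The next step, 320 to 370 kb, jumped to 3.03, 2.12, 4.92 and 2.73. Values averaged 0.678 to 0.933 from 370 to 520 kb and reached 3.95, 5.77, 7.57 and 5.71 at 970 to 1020 kb. From 1520 kb outwards no step on this side averaged over 0.758, and 3 of the 10 steps held no contact in any library.

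**Figure D1:**
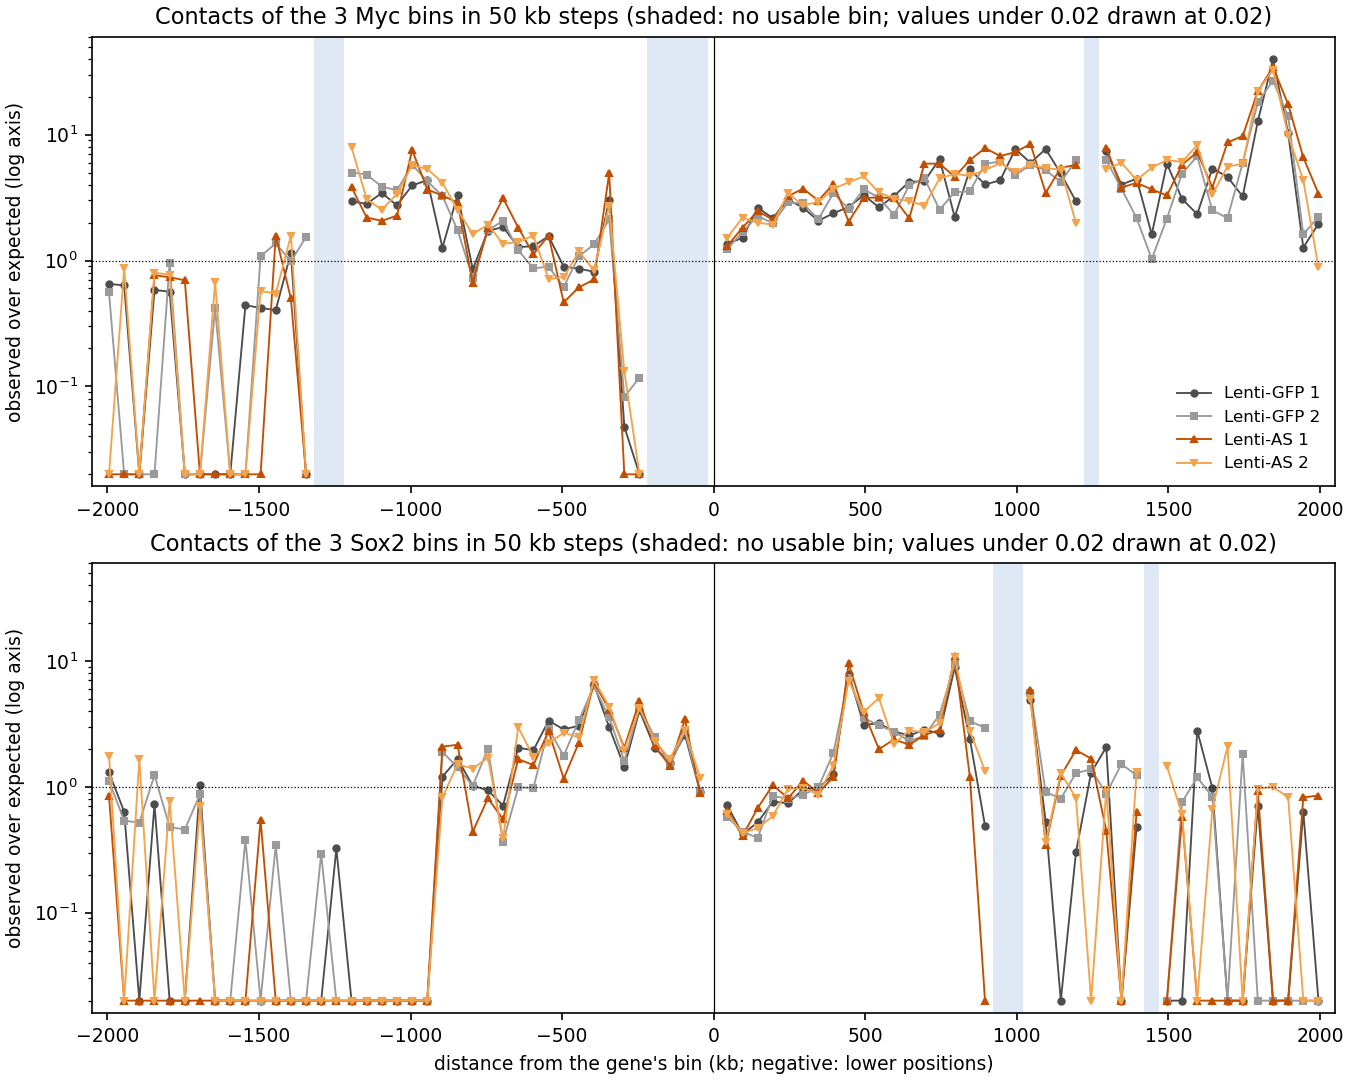
Observed over expected contacts (log axis) of the 3 Myc bins (top) and the 3 Sox2 bins (bottom) in 50 kb steps against distance from the gene in kb, with 1 line per library, values under 0.02 drawn at 0.02 and steps without a usable bin shaded. All 4 lines show the Myc peak of 26.9 to 39.6 in the step from 1820 kb on the higher side and the Sox2 peaks near -395, 445 and 795 kb, while at single steps such as 1920 kb from Myc the groups lie apart.

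The nearly empty stretch below the Myc gap, 102.26 to 102.36 Mb, lacked contacts with its other neighbours too. It had 7 contacts with the 3 Myc bins where 144 were expected, and 79 with the 10 bins just below it where 1300 were expected. Its strongest partner was chromosome 7 from 101 to 101.23 Mb, at 14.9, 15.8, 15.9 and 14.8 times the expected count in the 4 libraries. The Myc bins themselves met that partner at 0.544, 0.774, 0.473 and 0.619 times. A larger departure of the same kind lay outside the window, in a run of 15 bins from 91.21 to 91.36 Mb, 10.1 Mb below it. This run had 4731, 5452, 3940 and 3628 contacts with the Myc window, 133, 123, 159 and 126 times as many per bin as the bins flanking it. It began and ended within 1 bin: the bin before it had 11 contacts with the window, its first bin 1679, its last 412 and the bin after it 0. With the 20 bins just below it on the rn6 map the run had 14 contacts where 3239 were expected, and with the 20 bins just above it 6 where 2553 were expected. Those flanks met each other across the run at 1.14 times the expected count. Counted per usable bin of the Myc window, its contacts were highest with the 100 kb from 104.4 Mb, at 253, which is the same end of the window that held the peak of Myc contacts, and were 172 with the 100 kb from 102.5 Mb that holds Myc. All 4 libraries showed these values alike, and whether rn6 places these stretches where they lie in the cells' genome was not tested. Distances given for Myc are those of the rn6 map.

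Around Sox2 the contacts were patchy on both sides and peaked at a few places. On the lower side the step from 70 to 120 kb had values of 2.59, 2.76, 3.43 and 2.81, the step from 220 to 270 kb had 4.05, 4.27, 4.81 and 4.22, and the step from 370 to 420 kb, 120.75 to 120.8 Mb, had 6.52, 6.29, 6.80 and 7.06. The steps between these were lower, such as 1.56, 1.47, 1.47 and 1.67 at 120 to 170 kb. On the higher side Sox2 contacts were below the distance average close to the gene, at 0.711, 0.575, 0.645 and 0.610 from 20 to 70 kb and 0.420, 0.441, 0.407 and 0.430 from 70 to 120 kb. They then reached 7.95, 7.27, 9.56 and 6.94 in the step from 121.58 to 121.63 Mb and 8.89, 9.42, 10.97 and 10.7 in the step from 121.93 to 121.98 Mb. The step at 1020 kb had 4.92, 5.59, 5.86 and 5.02, and further steps on this side did not average above 1.09. The lower side ended abruptly: 6 consecutive steps from 920 to 1220 kb held 0 contacts in all 4 libraries. The 3 Sox2 bins had 3 contacts in all with the 50 bins below 120.26 Mb, where 115 were expected, and 595 with the 50 bins above it, where 307 were expected. The same place separated its own neighbours, since the 20 bins below and the 20 bins above met at 0.135, 0.151, 0.143 and 0.155 times the expected count. Far outside the window, the single bin at 49.85 Mb on chromosome 2 had 123, 144, 110 and 94 contacts with the Sox2 window, 161 times as many as the bins around it. Whether rn6 joins and places these stretches as they lie in the cells' genome was not tested.

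Compared by group, the Lenti-AS mean was above the Lenti-GFP mean in all 6 of the highest distal steps, 3 for each gene, and in 3 of the 6 the groups did not overlap, against 14.6% of all steps. For the Myc step at 104.41 Mb the Lenti-GFP mean was 33.3 ± 8.99 (SD, n = 2) and the Lenti-AS mean 33.6 ± 1.13, a log2 difference of 0.01, with an exact two-sided permutation p of 1. The step at 104.36 Mb averaged 15.4 ± 3.75 in Lenti-GFP and 22.2 ± 0.0718 in Lenti-AS, a log2 difference of 0.53 with exact p = 0.333, and both Lenti-AS values lay above both Lenti-GFP values. For Sox2 the step at 121.93 Mb averaged 9.15 ± 0.373 and 10.8 ± 0.193 (log2 0.24, exact p = 0.333) and the step at 120.75 Mb 6.41 ± 0.157 and 6.93 ± 0.183 (log2 0.11, exact p = 0.333), again without overlap. The step at 121.58 Mb averaged 7.61 ± 0.474 and 8.25 ± 1.85, and the groups overlapped (exact p = 1). The 3 Sox2 bins, like those of Myc, had more contacts within the chromosome in Lenti-AS: 1.23 and 1.23 times the median bin in Lenti-GFP on average over the 3, and 1.31 and 1.34 in Lenti-AS. Divided by these contacts, as for the counts of steps, the log2 differences were -0.12, 0.39 and 0.03 for the Myc steps at 104.41, 104.36 and 104.46 Mb, and 0.13, 0.01 and 0.00 for the Sox2 steps at 121.93, 121.58 and 120.75 Mb. The groups then overlapped in all but the steps at 104.36 and 121.93 Mb. Here too the divisor contains the contacts compared. With 2 libraries in each group, 0.333 is the smallest p that exact permutation can give, so none of these could pass a threshold of 0.05.

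**Figure D2:**
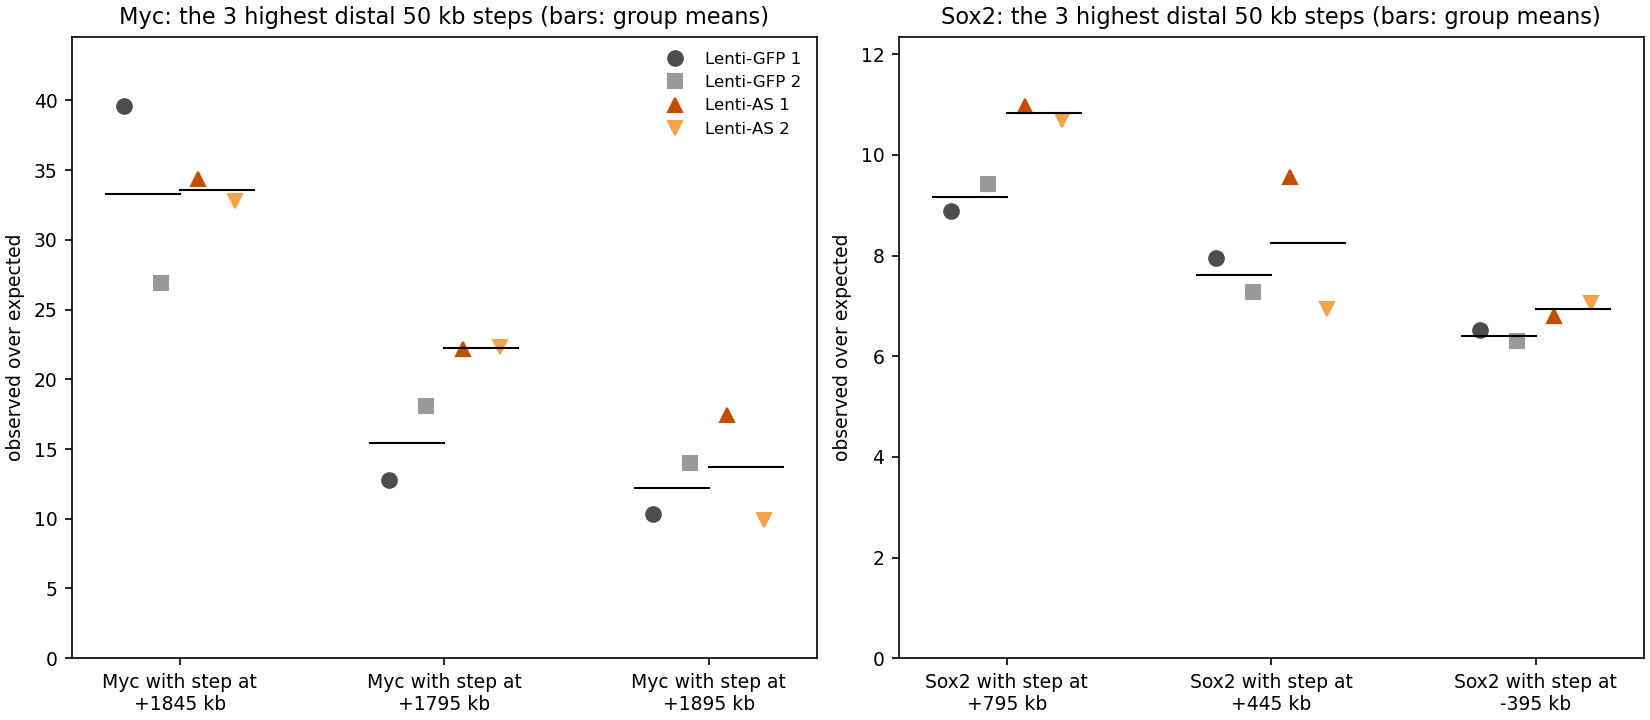
Observed over expected contacts of the 3 Myc bins (left) and the 3 Sox2 bins (right) with the 3 distal 50 kb steps of highest mean, 1 point per library and a bar for each group mean, labelled by distance from the gene. For Myc at +1845 kb the Lenti-GFP points (39.6 and 26.9) enclose the Lenti-AS points (34.4 and 32.8), while for Sox2 at +795 kb both Lenti-AS points (10.97 and 10.7) lie above both Lenti-GFP points (8.89 and 9.42).

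At 10 kb the distal peaks resolved into single bin pairs, called as loops where a pair exceeded a negative binomial expectation for its distance and bin contacts at a q of 0.05 or less. The Myc window had 437 pairs called in at least 1 library, of which 25, or 5.72%, were called in all 4, against 9.27% of all 205973 loops. Most of these 25 joined the stretch from 102.26 to 102.36 Mb to bins that start between 101.15 and 101.26 Mb. The highest of them, 101.22 with 102.27 Mb, stood at 92.7 times the expected count. Whether rn6 places that stretch as it lies in the cells' genome was not tested, as said above. The Sox2 window had 130, of which 14, or 10.8%, were called in all 4. Of those with an end in a gene's 3 bins, 3 of 37 for Myc and 7 of 21 for Sox2 were called in all 4 libraries. The median loop of the Myc window had 10 contacts summed over the libraries against 18 for Sox2.

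Among the loops that ended at Myc, the 3 with the highest values all began in the bin at 102.58 Mb. This is the first usable bin above the gap and may hold the gene or part of it. It had 11, 6, 9 and 13 contacts with 104.41 Mb, 92.1 times the expected count over the 4 libraries, and 15, 6, 4 and 9 with 104.42 Mb, 81.0 times. Both of these were called in all 4 libraries. The pair with 104.4 Mb had 3, 13, 15 and 9 contacts, 94.2 times the expected count, and was called in 3. The third Myc loop called in all 4 libraries ran the other way, from 102.58 to 102.25 Mb, with 18, 11, 22 and 13 contacts, 14.6 times the expected count. The bin that holds Myc gave lower values with the same distal bins, 54.2 times with 104.41 Mb and 61.4 times with 104.42 Mb, each called in 3 libraries.

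The Sox2 loops called in all 4 libraries reached both sides. The bin at 121.17 Mb met 121.97 Mb with 10, 13, 12 and 8 contacts, 30.3 times the expected count, and 121.61 Mb with 21, 15, 14 and 15, 20.9 times. The bin at 121.15 Mb met 120.77 Mb with 19, 18, 17 and 21 contacts, 20.3 times, and a close bin at 121.06 Mb with 40, 59, 36 and 32, 10.6 times. The bin that holds Sox2 met 121.61 Mb with 14, 14, 18 and 8 contacts, 17.9 times, and 121.97 Mb with 6, 10, 7 and 5, 20.1 times. The seventh, 121.17 with 121.95 Mb, had 9, 7, 7 and 5 contacts, 19.2 times. Between the groups the log2 difference of these 7 loops ran from -0.02 to 0.56, and 0 of them reached an unadjusted p of 0.05.

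Domain edges, taken as local minima of the insulation score (the log2 mean balanced contact across a bin within 200 kb, relative to its chromosome), placed Sox2 at one of the deeper edges in the window. The minimum lay at 121.17 Mb, 10 kb above the bin that holds Sox2, in each of the 4 libraries, with scores of -1.91, -1.84, -1.69 and -1.85. On the sum of the libraries its prominence was 2.49, and 646 of the 7174 edges of the genome were more prominent. A score at least this low was found at 1.01% of scored bins. The Sox2 window had 5 edges within 1 bin of each other in all 4 libraries, starting on the summed map at 120.26, 120.77, 121.17, 121.61 and 121.93 Mb. The bin at 121.93 Mb was the last scored one before a run of bins without a score, and interpolation across that run set its call in every library. The edge at 120.26 Mb, where contacts with Sox2 stopped, had a prominence of 2.61, with 565 edges above it. The nearest edge below Sox2 was at 120.92 Mb in 3 libraries and at 120.78 Mb in Lenti-AS 2, since the one at 120.92 Mb was shallow, with a prominence of 0.234.

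Each of the 3 highest Sox2 steps contained one of these shared edges, of which that at 121.93 Mb was set by the bins without a score above it. Some of the edges also met one another. Taken as blocks of 3 bins, the edges at 120.77 and 121.61 Mb, which lie on opposite sides of Sox2, met at 12.6, 10.6, 11.2 and 11.8 times the expected count. The edges at 120.77 and 121.93 Mb met at 7.74, 7.41, 6.28 and 7.21 times. The gene block met 120.77 Mb at 9.29, 6.81, 8.26 and 8.22 times and 121.61 Mb at 10.3, 8.79, 11.7 and 8.83 times. It met the block at 121.93 Mb at 3.02, 4.46, 2.85 and 3.75 times, below the values of the step that starts there, in which the Sox2 loops ended at 121.95 and 121.97 Mb. The edges at 121.61 and 121.93 Mb met at 2.84 times on average. Blocks at 120.77, 121.16 and 121.61 Mb thus had high values in all 3 pairings in every library, while none of the blocks met 120.26 Mb at more than 1.47 times on average.

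**Figure D3:**
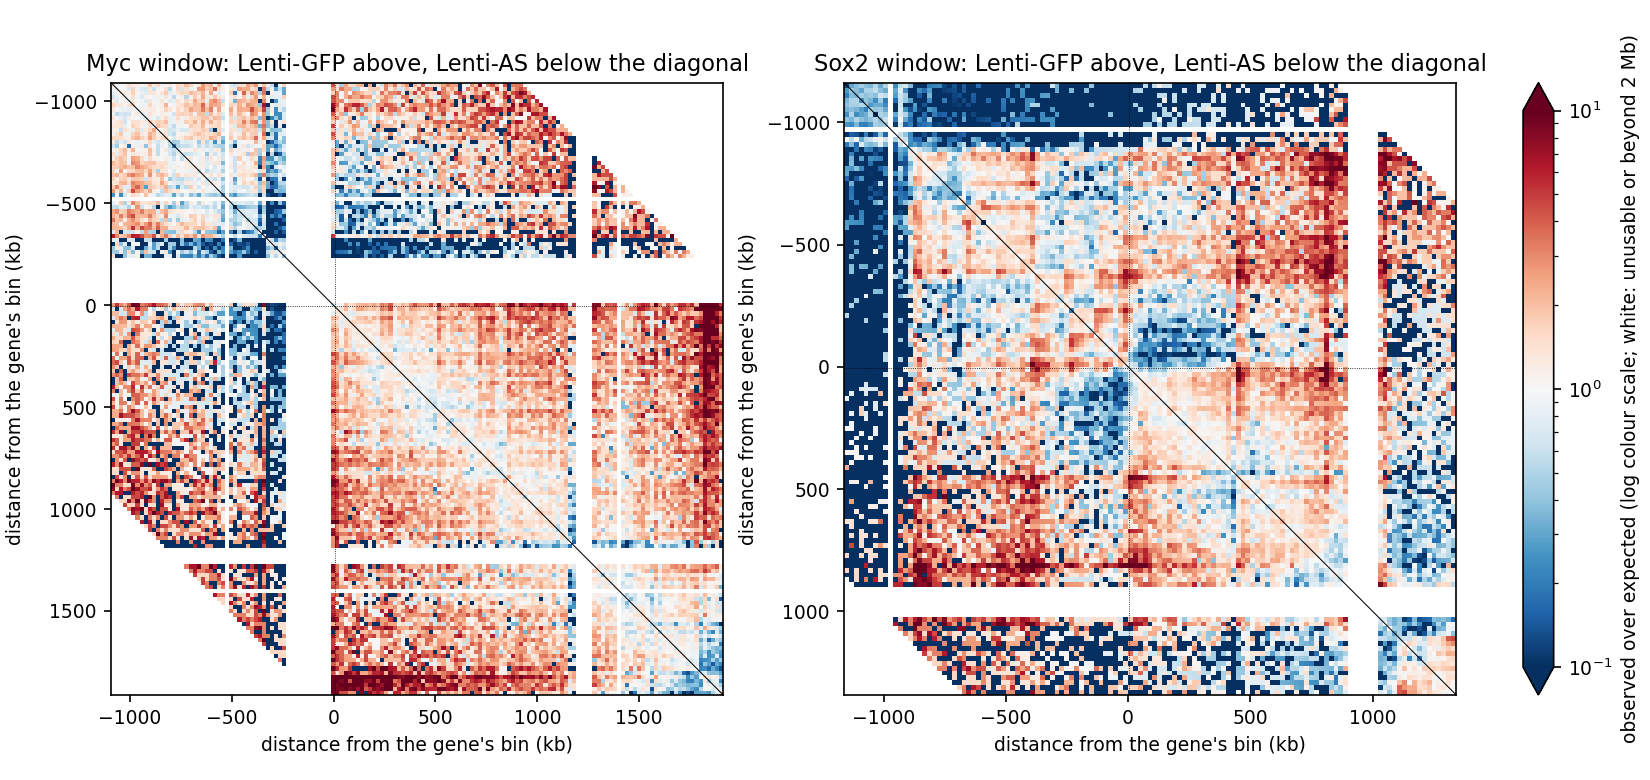
Observed over expected contacts (log colour scale from 0.1 to 10) in 20 kb bins of the Myc window (left) and the Sox2 window (right), both axes in kb from the gene, with the 2 Lenti-GFP libraries summed above the diagonal and the 2 Lenti-AS libraries summed below it; white marks unusable bins and pairs beyond 2 Mb. Both triangles show the Sox2 edge and its low-contact block (0.378 to 0.408) beside the gene and the band of high Myc contacts at the far end of its window.

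Myc showed no edge of its own that could be scored, because the score needs usable bins on both sides: the 46 bins from 102.22 to 102.68 Mb, Myc among them, had no score. The nearest edge below was called at 102.21 Mb in all 4 libraries, 380 kb from Myc, with scores of -0.719, -0.918, -0.892 and -0.726, and it was the only edge of the window shared by all 4. It is the last scored bin before the 46 without a score, and the score was still falling there. Scores were interpolated across the gap, which set this call in every library, so it does not show where an edge lies. Without Lenti-GFP 1, 4 edges were shared by the remaining libraries. The nearest edge above was at 102.87 Mb in Lenti-GFP 1 and Lenti-AS 2 and at 103.1 or 103.11 Mb in the other two, so it did not separate the groups. The deepest Myc edge on the summed map was at 104.46 Mb, called in 3 libraries, with a prominence of 2.52. This lies beside the distal bins that Myc met most.

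Contact densities between these edges described the neighbourhoods. Sox2 lay at the upper end of a dense domain, 120.92 to 121.17 Mb, with a mean observed over expected value of 1.67, 1.66, 1.68 and 1.67. The domain above it, 121.17 to 121.61 Mb, had 1.33, 1.24, 1.23 and 1.19, and between both domains the value was 0.407, 0.378, 0.408 and 0.405. The Myc domain was taken from 102.21 to 102.87 Mb, with its lower limit set by the bins without a score. Largely without usable bins below the gene, it had 1.19, 1.12, 1.09 and 1.12, about the distance average. This mean mixes denser pairs with those of the stretch from 102.26 to 102.36 Mb, which had 7 contacts with the Myc bins where 144 were expected. The stretch, whose place was not tested, also enters the values with the domains on either side. The Myc domain met the domain below at 0.612, 0.609, 0.612 and 0.619 and the domain above at 1.18, 1.21, 1.27 and 1.25. The summed domains of both genes differed between Lenti-AS and Lenti-GFP by log2 values between -0.09 and 0.08, and no exact permutation p was below 0.333.

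**Figure D4:**
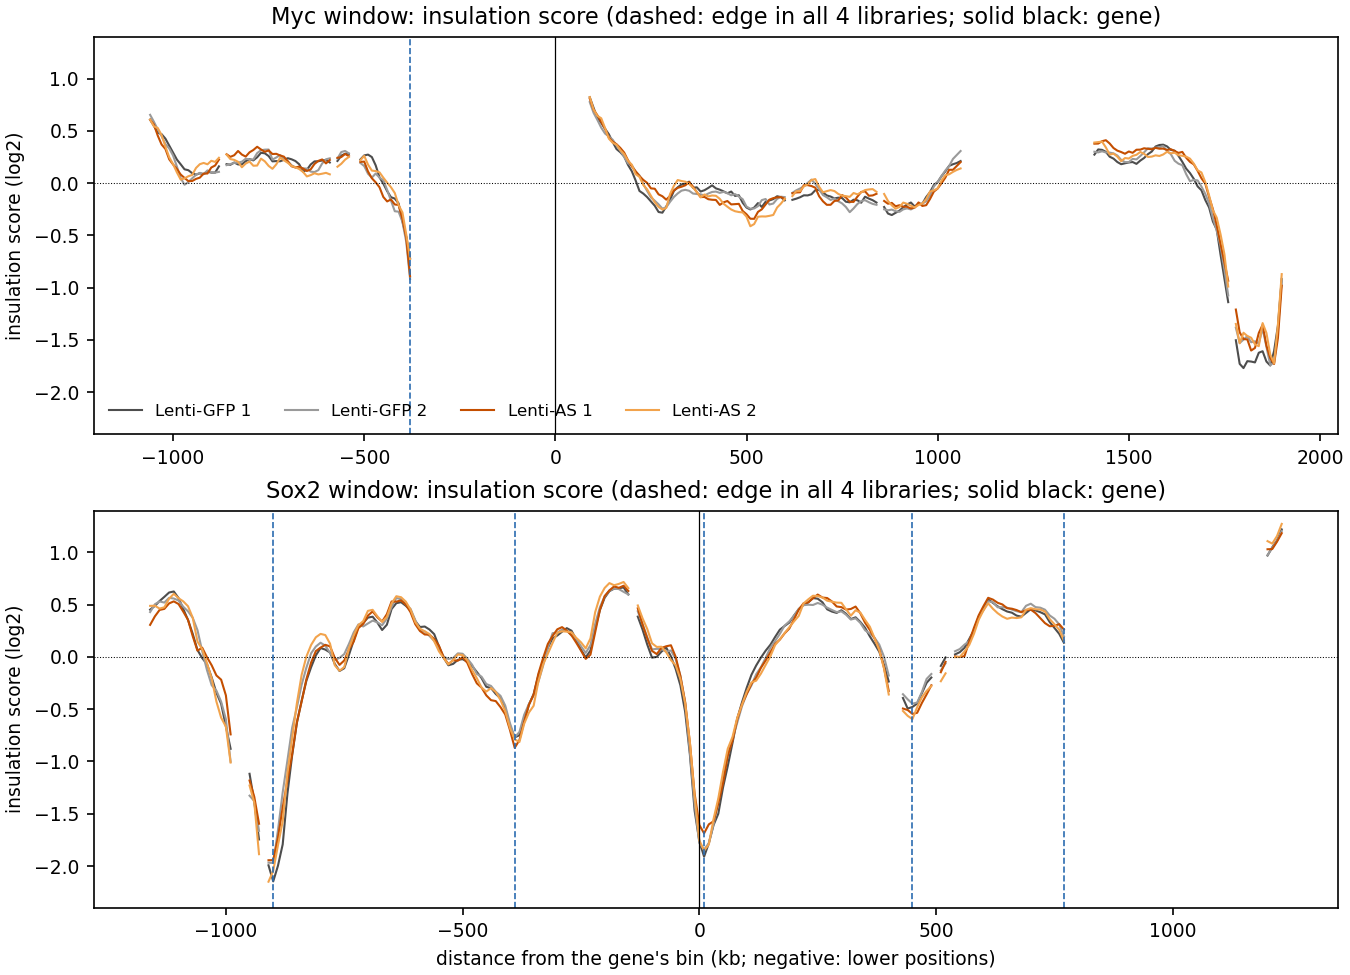
Insulation score (log2) of each 10 kb bin against distance from the gene in kb, 1 line per library, for the Myc window (top) and the Sox2 window (bottom); dashed lines mark edges found in all 4 libraries, the black line marks the gene and gaps mark bins without a score. The Sox2 minimum at +10 kb reaches -1.91 to -1.69 in the 4 libraries, and Myc lies in a gap without a score. The dashed lines at -380 kb for Myc and 770 kb for Sox2 mark the last scored bin before a gap, where the gap set the call.

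The balance of contacts between the sides was opposite for the genes. From 50 kb to 1 Mb, the log2 ratio of scaled contacts towards higher over lower positions was 1.01, 0.99, 0.90 and 0.97 for Myc, and -0.78, -0.75, -0.82 and -0.82 for Sox2. The Lenti-AS values were below both Lenti-GFP values for each gene, by 0.06 for Myc and 0.05 for Sox2 (exact p = 0.333 for both). The Sox2 balance belonged to the first 300 kb, where it was -1.84, -1.96, -1.86 and -1.97. From 300 kb to 1 Mb, a range chosen after the values were seen, its sign turned, at 0.15, 0.30, 0.24 and 0.17. For Myc the same range gave 1.00, 1.05, 1.02 and 1.07, where the groups overlapped and Lenti-AS was higher by 0.02 on average. The direction of the group difference depended on what was counted. For Myc it was also positive out to 2 Mb (0.0662), for the gene's bin alone (0.0768) and in the authors' merged signal (0.17), and for Sox2 it was positive for the gene's bin alone (0.0436).

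Contacts of the genes' bins were then compared between Lenti-AS and Lenti-GFP in 4 distance classes on each side, with edgeR's quasi-likelihood test fitted over all 1575309 classes of the genome. Of the 19 classes deep enough to test for Myc and the 19 for Sox2, 0 passed an adjusted p of 0.05, where 0.0177% of all classes did. At an unadjusted p below 0.05 there were 2 for Myc and 0 for Sox2, against 8.01% of all classes. DESeq2 gave 1 and 0 at that threshold, against 0.503% of all classes, and called 0 for both at an adjusted p of 0.05. The lowest p was that of the bin just above Myc, 102.6 Mb, with positions 300 kb to 1 Mb higher. Its scaled contacts were 2.24 and 2.67 in Lenti-GFP and 3.79 and 3.40 in Lenti-AS, a log2 difference of 0.54 (95% interval 0.27 to 0.82) with an adjusted p of 0.141. With offsets that also hold bin contacts it was 0.41 with an adjusted p of 0.743, and the median over the Myc classes was -0.01 in place of 0.12. In the same class the bin that holds Myc had 3.08 and 3.08 against 3.29 and 3.40 (log2 0.12, interval -0.15 to 0.38). The other was the bin at 102.58 Mb, with positions 1 to 2 Mb higher, which include the distal peak: 8.56 and 7.90 in Lenti-GFP and 11.4 and 10.4 in Lenti-AS (log2 0.41, interval 0.14 to 0.67, adjusted p = 0.338).

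Among the Sox2 classes the log2 differences ran from -0.30 to 0.37 and among the Myc classes from -0.62 to 0.54. The Myc class at -0.62 was at -0.90 without Lenti-GFP 1 and at -0.21 without Lenti-GFP 2, and the Sox2 class at -0.30 was at -0.61 and 0.18. The Myc class at 0.54 ran from 0.43 to 0.68 when 1 library was left out. The Sox2 class at 0.37 had scaled values of 0.587 and 0.395 in Lenti-GFP and 0.565 and 0.687 in Lenti-AS, so the groups overlapped. The best measured Sox2 class, the bin at 121.15 Mb with positions 20 to 100 kb lower, had a scaled value of 2.67, 2.80, 3.06 and 3.11 and a log2 difference of 0.17 (interval -0.05 to 0.39). This class stood higher in the mean than in 99.6% of bins. The class of the bin at 121.17 Mb with positions 300 kb to 1 Mb higher, which holds the loops to 121.61 and 121.97 Mb, had 4.802, 4.59, 4.68 and 4.58, a log2 difference of -0.02 (interval -0.26 to 0.23). Intervals of the sparser classes reached 1.54 in size for Myc and 0.97 for Sox2, so differences of that size lay within them.

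**Figure D5:**
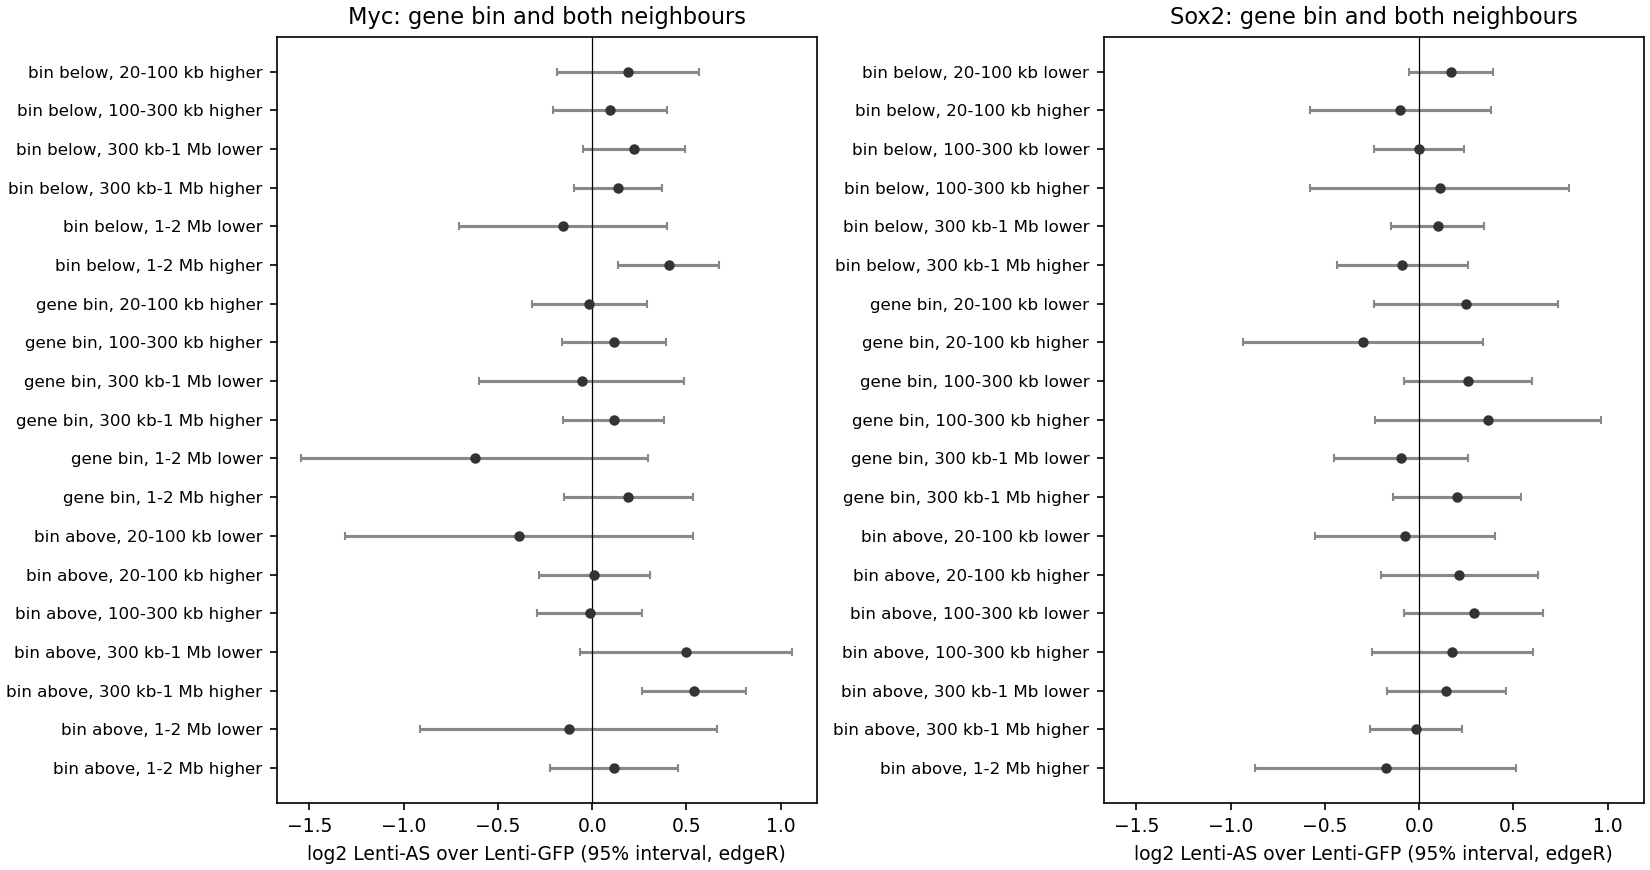
Log2 difference of Lenti-AS over Lenti-GFP (point) with its 95% interval from edgeR for each tested distance class of the Myc bins (left) and the Sox2 bins (right), named by bin, distance and side. Intervals of 17 of the 19 Myc classes and all 19 Sox2 classes cross 0, and the Myc class farthest above 0 lies at 0.54.

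At 100 kb resolution and distances of at most 1.9 Mb, 527 pairs touching the Myc window and 368 touching the Sox2 window were tested, and 0 of either passed an adjusted p of 0.05 by edgeR or by DESeq2, against 0.331% of 307311 pairs by edgeR. At an unadjusted p below 0.05 there were 48 (9.11%) and 24 (6.52%), against 8.92% of all pairs, with 29 higher and 19 lower in Lenti-AS for Myc and 7 and 17 for Sox2. DESeq2 gave 2 and 1, against 1.03% of all pairs. The median log2 difference was 0.02 for Myc and -0.06 for Sox2, beside -0.01 over all pairs. The lowest p around Sox2 belonged to the neighbours 121.2 and 121.3 Mb, just above the gene's domain edge, with 734, 738, 480 and 391 contacts and scaled values of 1.39, 1.21, 1.18 and 1.01. The log2 difference was -0.25 (interval -0.38 to -0.11) with an adjusted p of 0.0698. Both Lenti-AS values lay below both Lenti-GFP values, though closely. The pair passed without Lenti-GFP 2 (log2 -0.35, adjusted p = 0.0129) or without Lenti-AS 1 (log2 -0.36, adjusted p = 0.0473), with a replicate block (0.0263) and with a mean count of at least 30 (0.0416). Its log2 difference was -0.15 without Lenti-GFP 1 and -0.14 without Lenti-AS 2, and it passed in neither case. With offsets that also hold bin contacts it was -0.04. Without Lenti-AS 1 a second Sox2 pair, 120.5 with 121.5 Mb, also passed (log2 -2.06, adjusted p = 0.0171). In the other direction the lowest p was that of 120.2 with 120.5 Mb, at 0.986, 1.12, 1.34 and 1.35 (log2 0.35, interval 0.08 to 0.61, adjusted p = 0.352). The 100 kb bin at 120.2 Mb itself contains the edge at 120.26 Mb, so this pair does not measure contact across that edge.

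Around Myc the lowest p belonged to the pair 102.7 with 104.6 Mb, with 44, 56, 24 and 12 contacts, 4.04, 4.39, 2.88 and 1.505 times the expected count. The log2 difference was -0.94 (interval -1.46 to -0.41), the adjusted p 0.0891, and both Lenti-AS values lay below both Lenti-GFP values. With a mean count of at least 30 the pair passed (adjusted p = 0.0496). Without Lenti-AS 1 the log2 difference was -1.49 and without Lenti-AS 2 it was -0.55. The lowest p in the other direction was that of 103.4 with 103.5 Mb, at 1.07, 1.06, 1.26 and 1.22 (log2 0.22, interval 0.08 to 0.36, adjusted p = 0.169, and log2 0.08 with offsets that also hold bin contacts). For the 100 kb bins that hold the genes, the lowest p was that of Myc's bin with 102.9 Mb, at 2.07, 2.80, 3.70 and 3.53 (log2 0.55, interval 0.18 to 0.93, adjusted p = 0.237, and log2 0.37 without Lenti-GFP 1), and of Sox2's bin with 120.8 Mb, at 1.75, 1.85, 2.08 and 2.15 (log2 0.22, interval 0.03 to 0.42, adjusted p = 0.448). Myc's 100 kb bin holds the gap for most of its length, so its contacts come from few 10 kb bins. Of its 27 pairs, 6 had an unadjusted p below 0.05 by edgeR, with a median log2 difference of 0.20 over the 27. For Sox2's bin it was 2 of 22, with a median of -0.02. Over all pairs the share was 8.92% and the median -0.01. Pairs of the same bin share its depth, so they are not independent.

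Of the 437 loops of the Myc window and the 130 of the Sox2 window, 0 changed at an adjusted p of 0.05, against 0.00728% of all loops, and the lowest adjusted p was 0.805 in both. DESeq2 also called 0. At an unadjusted p below 0.05 there were 15 and 12, against 5.44% of all loops, and the median log2 difference was -0.14 for Myc and 0.19 for Sox2, beside -0.08 for all loops. A pair entered the test through a call in at least 1 library, and the same counts were then compared. Differences of single loops are therefore shaped by that selection, here and in all loops of the genome. Leaving out 1 library moved these medians across 0, from -0.29 to 0.21 for Myc, from -0.02 to 0.26 for Sox2 and from -0.21 to 0.05 for all loops. The lowest p in each direction belonged to pairs of few contacts: around Myc, 102.24 with 102.98 Mb (0, 1, 6 and 4 contacts) and 102.64 with 103.37 Mb (6, 8, 0 and 1), and around Sox2, 121.6 with 121.94 Mb (0, 2, 8 and 4) and 122.27 with 122.71 Mb (3, 8, 0 and 0). Each of these was called in 1 library. Under the rule of the study's own loop analysis, an unadjusted p below 0.05 with a log2 change over 1, 15 Myc loops (3.43%) and 12 Sox2 loops (9.23%) passed, against 4.83% of all loops. Of these, 9 of the 15 and 8 of the 12 were called in 1 library, as were 321 of the 437 and 89 of the 130, and 0 of either in all 4. Some of the 15, such as 101.22 with 102.33 Mb, ended in the stretch from 102.26 to 102.36 Mb, whose place was not tested. By DESeq2 the same rule passed 2 and 1, against 0.421% of all loops. Leaving out Lenti-GFP 2 gave 25 and 2, against 4.98%, and leaving out Lenti-GFP 1 gave 5 for Sox2, against 4.81%. Of the loops that ended at a gene, 2 passed for Myc and 0 for Sox2. The Myc pair 102.58 with 104.4 Mb was one, with 3, 13, 15 and 9 contacts (log2 1.11, interval 0.06 to 2.16, adjusted p = 0.805), while its neighbours 104.41 Mb (log2 0.90, interval -0.12 to 1.91) and 104.42 Mb (log2 -0.14, interval -1.31 to 1.03) did not. Lenti-GFP 1, with 3 contacts, stood apart from Lenti-GFP 2, with 13. The other was 102.58 with 103.39 Mb, with 0, 1, 2 and 5 contacts.

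The insulation score was tested with limma in 210 bins of the Myc window and 189 of the Sox2 window, and 0 passed an adjusted p of 0.05, against 0.00176% of all bins. At an unadjusted p below 0.05 there were 21 for Myc and 7 for Sox2, against 5.43% of all bins. The Myc count was 11 of 232 with a 100 kb window, 28 of 213 with a 400 kb window, 23 with thinned libraries and 20 with a replicate block. In the same order the Sox2 count was 4 of 208, 5, 5 and 4. Scores of neighbouring bins share contacts, so bins of a window are not independent. The median Myc difference was 0.0188, and 0.00887 without Lenti-GFP 2 and 0.0146 without Lenti-GFP 1. The share of all bins at that p was 5.22% with a 100 kb window, 6.4% with a 400 kb window, 5.33% with thinned libraries and 5.51% with the block. The score of the Sox2 edge at 121.17 Mb was higher in Lenti-AS by 0.11 (interval -0.03 to 0.25, adjusted p = 0.930), that of the bin that holds Sox2 by 0.09 (interval -0.04 to 0.22), and that of the bin below it, 121.15 Mb, by 0.12 (interval 0.01 to 0.22, adjusted p = 0.916). Among bins of the Sox2 window that were higher in Lenti-AS, the last had the lowest p. The median interval in both windows reached 0.10 to either side, so shifts beyond about that size would lie outside the interval of a typical bin.

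Contacts with other chromosomes were a readout the windows were not chosen on. Of 263 Myc bins and 238 Sox2 bins tested, 0 passed an adjusted p of 0.05 by edgeR or by DESeq2, against 0.119% of all bins by edgeR. At an unadjusted p below 0.05 there were 19 and 18, against 9.11% of all bins. Without Lenti-GFP 2, which left 1 library in that group, the log2 difference of the bin at 120.96 Mb in the Sox2 window was -0.81. The bin that holds Sox2 had 16.9, 30.3, 27.7 and 45.5 such contacts after scaling for depth (log2 0.59, interval 0.05 to 1.13, adjusted p = 0.498), with Lenti-GFP 2 above Lenti-AS 1. The bin that holds Myc had 74.0, 79.7, 71.6 and 76.3 (log2 -0.06, interval -0.40 to 0.28). The bin at 102.58 Mb had 54.4 and 55.8 in Lenti-GFP and 76.2 and 76.3 in Lenti-AS (log2 0.47, interval 0.11 to 0.83, adjusted p = 0.385). Its neighbour at 102.57 Mb, the last bin of the gap, had 161, 211, 176 and 186 contacts with other chromosomes before scaling, although it was unusable for contacts within the chromosome. Its log2 difference was 0.43 (interval 0.19 to 0.67, adjusted p = 0.149), the lowest p in that direction in the window.

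The first eigenvector of each chromosome, which sorts 100 kb bins by their pattern of long-range contacts, changed sign inside both windows. It was negative in the 9 Myc bins from 101.5 to 102.3 Mb and positive in the 18 from 102.6 to 104.4 Mb, in all 4 libraries, so the sign turned across the gap beside Myc. The 100 kb bin that starts at 102.5 Mb and holds Myc itself had no value. In the Sox2 window it was negative in 6 bins, from 120 to 120.3 Mb and at 122 and 122.2 Mb, and positive in 18. The bin that holds Sox2, 121.1 Mb, had 1.13, 1.21, 0.91 and 1.06. Its difference, -0.18 (interval -0.36 to -0.00), lay beside a median of -0.04 over all bins and had an adjusted p of 0.425 by limma. No bin of either window, and 0% of the 25554 bins of the genome, passed an adjusted p of 0.05. At an unadjusted p below 0.05 there were 0 for Myc and 6 for Sox2, against 11.7% of all bins. The Sox2 count was 5 with a replicate block, against 11% of all bins, and 3 with quantile-normalized eigenvectors, against 8.91%. With quantile normalization the median difference of the Sox2 bins was -0.02 in place of -0.08. When 1 library was left out, this median ran from -0.105 to -0.0763. All 6 bins of the main fit were lower in Lenti-AS, and the largest of the Sox2 differences was -0.28 at 121.8 Mb (0.71 and 0.75 against 0.45 and 0.46, adjusted p = 0.284). The sign of an eigenvector is arbitrary and was set by contacts with other chromosomes, so the bins are not named as active or inactive compartments.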

How the data were processed

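The authors aligned 150 bp read pairs to rn6 and made contact matrices with HiC-Pro, per the study's methods and labels; its version is not given in the sources used here. They deposited raw contact counts of 10 kb bins for each library, which were used for every test, and a signal balanced by iterative correction for the merged libraries of each group, which was used as an alternative with no test, with its expectation taken from the windows' own pairs. The deposited 100 kb files were not used, since 10 kb counts could be summed. Depth was 70488877 to 110770015 contacts per library.

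Expected counts, loops, insulation and eigenvectors (the last 2 on counts balanced anew per library) were computed with Python 3.11.15 (numpy 2.4.6, scipy 1.17.1, numba 0.67.0). Counts were tested with edgeR 4.0.16 (quasi-likelihood test, offsets from each library's contacts at the same distance, mean count of at least 10 except for loops), with DESeq2 1.42.0 as an alternative. Scores were tested with limma 3.58.1. All p-values were adjusted by Benjamini-Hochberg over the whole genome. Single values were compared by exact two-sided permutation of the 4 libraries. Loops were called by negative binomial regression from 50 kb to 2 Mb, since the study's loop caller was not installed. A domain edge needed a prominence of 0.2, with scores interpolated across bins without one. Scripts were tested on simulated data.

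The windows, genes and distance classes were chosen with earlier results of these data known. Bin pairs were named by the largest change among those that passed, up to 3 in each direction, and, as none passed, by the lowest p in each direction, distal steps by the 3 highest means over all 4 libraries beyond 200 kb, and edges by position; other pairs, loops and edges in the text were named after their values were seen. Gene landmarks and genes of similar profile were not analysed here, as no rn6 gene table was used. Replicate numbers follow the sample titles, and the descriptions number the same libraries 2 and 3. Alternatives were other offsets, filters, bin sizes, thinned libraries, edge settings, a replicate block, leaving out each library and, chosen after seeing the data, profiles divided by the contacts of the gene's bins.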

Additional observations from a re-analysis of the deposited data

How the results depend on the processing

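No loop, distance class, insulation score or eigenvector value of either window passed an adjusted p of 0.05 under any alternative run, which for counts included DESeq2, offsets that also hold bin contacts, other filters and thinned libraries. For 100 kb pairs, a mean count of at least 30 gave 1 call around Myc (102.7 with 104.6 Mb, adjusted p = 0.0496) and 1 around Sox2 (121.2 with 121.3 Mb, 0.0416). Leaving out 1 library gave 0 calls for Myc and 0 to 2 for Sox2, and for Sox2 contacts with other chromosomes 0 to 1 (120.96 Mb, without Lenti-GFP 2). Leaving out 1 library gave 11 to 25 Myc loops and 2 to 10 Sox2 loops past the study's rule; DESeq2 gave 2 and 1, and a loop q of 0.01 gave 10 of 234 and 6 of 67. At a loop q of 0.01, 5% of all 108508 loops passed the study's rule. The class of the Sox2 bin with positions 20 to 100 kb higher (log2 -0.30) ran from -0.609 to 0.18, the latter without Lenti-GFP 2. Shared Myc edges numbered 4 at a prominence of 0.1, 3 with a 100 kb window and 2 with a 400 kb window, and 1 to 4 without 1 library; Sox2 had 8 with a 100 kb window and 5 to 6 without 1 library.

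The balance difference of Myc was 0.0662 out to 2 Mb, 0.0768 for its bin alone, 0.0240 from 300 kb to 1 Mb and 0.17 in the merged signal, and -0.10 to -0.03 without 1 library. That of Sox2 was -0.0138 to 300 kb, 0.0436 for its bin alone, -0.0185 from 300 kb to 1 Mb and -0.12 in the merged signal, and -0.06 to -0.03 without 1 library. Myc gave no value to 300 kb, since 2 libraries had no contact on its lower side there. The range from 300 kb to 1 Mb, and leaving out libraries for balance, density and edges, were chosen after seeing the data. With balanced contacts the density differences, taken between group means of log2 values, were, for Myc, -0.00213 in its domain, 0.00454 below, 0.00176 above and -0.0281 between its domain and the one below, and, for Sox2, -0.0349 in its domain, 0.00519 above, 0.0507 between its domain and the one below and 0.13 between it and the one above. For the remaining blocks, as log2 of the ratio of group means, the difference was 0.0935 between the Myc domain and the one above. In the domain below Sox2 it was 0.00713. In the merged signal the Myc differences were -0.0251 in its domain, -0.00667 below and 0.0381 above. Between the Myc domain and the one below the merged value was 0.0245, and with the one above 0.0755. For Sox2 they were -0.0125 in its domain, -0.00796 below and -0.00761 above. Between the Sox2 domain and the one below the merged value was 0.0388, and with the one above 0.0614. Causes were not tested. Single loops rest on few reads, a median of 10 and 18 contacts per loop in all 4 libraries.

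The replicate numbers of the titles were not taken to pair the libraries: deviations of same-numbered libraries correlated at 0.0135 over 174830 pairs of 100 kb bins. With 2 libraries in each group, and counting noise that lowers such a correlation, this cannot exclude pairing by number. With the replicate number as a block, Sox2 had 1 called 100 kb pair of 368 (121.2 with 121.3 Mb, adjusted p = 0.0263), where 1495 of all 307311 pairs were called. No other call of either window changed.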
